A study of Mus musculus with 16 samples.

Results

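The colony-stimulating factors and their receptors were followed through subcutaneous mouse neuroblastomas by single-cell RNA sequencing. The genes were the ligands Csf1 and Csf2 and the receptor genes Csf1r, Csf2ra, Csf2rb and Csf3r, looked up by symbol, and 6 of 6 were found among the 19715 genes measured. The 4 groups were CD45+ leukocytes sorted from tumors of CD200R-/- mice (KO sorted), CD45+ leukocytes sorted from tumors of wild-type mice (WT sorted), all tumor cells from CD200R-/- mice (KO tumor) and all tumor cells from wild-type mice (WT tumor). All hosts were male C57BL/6 mice, 8 weeks old when NB9464D cells, a mouse neuroblastoma line, were injected under the skin. Tumors were taken on day 28 and digested with type IV collagenase at 1 mg/mL, so all groups share the graft, its age and the digestion, and only the host genotype and the sort differ. CD200R is an inhibitory receptor of myeloid cells. The labels give the genotype as CD200R-/- in the sample characteristics and as CD200-/- in the growth protocol. Cd200r1, the gene of the receptor, had 0 UMIs (unique molecular identifiers, each standing for 1 captured RNA molecule) in the KO sorted library, against 2888 in the WT sorted library, and 5 in the KO tumor library, against 76 in the WT tumor library. Where in the gene the deleted part lies is not given in the labels, so 3′ tags show only that this RNA is missing.

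CSF1 acts through the receptor tyrosine kinase CSF1R, which monocytes and macrophages need for survival and differentiation and which also binds IL-34. GM-CSF, the product of Csf2, binds a specific alpha chain, CSF2RA, and signals through a beta chain, CSF2RB, that is shared with the receptors for IL-3 and IL-5 and that carries JAK2 to STAT5. G-CSF binds CSF3R, which drives the production and release of neutrophils and signals mainly through STAT3. In tumors these factors are known for recruiting and shaping macrophages and neutrophils.

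The genes lie apart in the genome (GRCm38, GENCODE vM21 annotation; the place of Csf1r is given with its values): Csf2ra on chromosome 19 (61223957 to 61228429, minus strand), Csf2rb on chromosome 15 (78325752 to 78353847, plus strand), Csf3r on chromosome 4 (126024550 to 126044440, plus strand), Csf1 on chromosome 3 (107741048 to 107760469, minus strand) and Csf2 on chromosome 11 (54247271 to 54249667, minus strand). Csf2rb has a neighbour of similar sequence, Csf2rb2, which encodes the mouse beta chain used by IL-3 alone, 20030 bases away. The transcripts of the pair were 90.9% identical over 4679 aligned bases. None of the 410 windows of 91 bases, the span of a read, in the last 500 bases of either transcript was shared by the other, so the 3′ tags used here could tell them apart in that stretch.

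Promoters of 3 of the genes are shown because these genes differ in where their RNA was found: Csf3r led in neutrophils, Csf2ra was found in several myeloid types, and Csf1 was found in sorted leukocytes and in cells named fibroblasts and neuroblastoma. Each runs from 250 bases before to 50 bases after the RefSeq start site in GRCm38.p6, 5′ to 3′ on the gene's strand: Csf3r at chr4:126024409-126024708 (plus strand), Csf2ra at chr19:61228369-61228668 (minus strand) and Csf1 at chr3:107760420-107760719 (minus strand). Capitals mark 2 motifs searched on both strands, GAGGAA, the core that the myeloid factor PU.1 binds (TTCCTC on the other strand), and GGGANNNNCC, a short NF-kB form (GGNNNNTCCC on the other strand).
Csf3r: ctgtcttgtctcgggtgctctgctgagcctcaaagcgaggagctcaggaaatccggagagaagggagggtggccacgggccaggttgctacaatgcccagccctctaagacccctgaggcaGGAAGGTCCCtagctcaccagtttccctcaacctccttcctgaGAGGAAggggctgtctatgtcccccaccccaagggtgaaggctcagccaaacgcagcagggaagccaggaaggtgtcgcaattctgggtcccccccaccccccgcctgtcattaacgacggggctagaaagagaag
Csf2ra: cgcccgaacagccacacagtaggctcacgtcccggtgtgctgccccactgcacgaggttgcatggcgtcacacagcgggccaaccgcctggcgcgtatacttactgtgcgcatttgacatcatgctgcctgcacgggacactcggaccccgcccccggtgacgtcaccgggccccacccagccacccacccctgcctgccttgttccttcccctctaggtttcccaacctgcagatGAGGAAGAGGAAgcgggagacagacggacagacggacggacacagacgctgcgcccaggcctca
Csf1: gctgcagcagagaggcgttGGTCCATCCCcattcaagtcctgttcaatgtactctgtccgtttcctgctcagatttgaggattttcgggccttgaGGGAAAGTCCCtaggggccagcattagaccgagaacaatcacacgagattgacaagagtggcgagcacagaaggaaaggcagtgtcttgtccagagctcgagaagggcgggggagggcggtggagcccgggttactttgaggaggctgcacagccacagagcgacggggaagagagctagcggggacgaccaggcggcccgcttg
The Csf3r window holds GAGGAA at -86 and an NF-kB match on the minus strand at -129. The Csf2ra window holds GAGGAA at -14 and again at -8, side by side, and no NF-kB match. The Csf1 window holds no GAGGAA and 3 NF-kB matches, at -231 on the minus strand, at -155 on the plus strand and at -154 on the minus strand, the last pair overlapping. Of 32851 RefSeq promoters of this length, 28.3% hold GAGGAA and 20.7% the NF-kB letters on either strand, so both are common, and a match is a description and not a measured site. Of the 6 genes, 4 had an entry in the promoter table.

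The 4 libraries held 4305 to 5897 cells and 29200338 to 103877007 UMIs. Median depth per cell was 3127 UMIs in the KO sorted, 4665 in the WT sorted, 16276 in the KO tumor and 19850 in the WT tumor library. The labels list 16 samples, 4 a group, but cells carry only the name of their group, so each group was 1 library and no test could be made. CPM, the scale of all levels here, are UMIs of a gene per 1000000 UMIs of the same cell type in the same library. Intervals in brackets are exact, at 95%, and cover counting error only: they say nothing of the spread between animals, cells or captures. Differences between genotypes cannot be told apart from differences between animals, tumors or captures. Of 20376 cells, 307 carried 1 of 113 barcodes that occur in more than 1 library. Leaving these cells out moved 2 genotype ratios by more than their interval, both of Csf1r in sorted macrophages (M1, and M1 with M2) and both still under 1.5-fold. Cell types are those the authors deposited. Their names were checked against markers: neutrophils, tumor M1 macrophages and regulatory T cells had 3 or 4 own markers among their top 10 genes. Myeloid dendritic cells and tumor M2 macrophages had 1 own marker, and sorted M1 and M2 macrophages had none alone and 2 (Ms4a7 and Apoe) when pooled. Cells named fibroblasts and neuroblastoma in the tumor libraries had none of their own and none of another type. Sorted cells named neuroblastoma carried, as a class, Ptprc, the gene of CD45, and all 10 macrophage markers, and are called sorted neuroblastoma-named cells here. At least 3 of these macrophage markers were seen in 58 of 171 KO and 149 of 205 WT cells of this class. The other 113 KO cells had 1238 CPM of Ptprc and 0 Csf1r UMIs.

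Csf1r (GRCm38 chromosome 18, 61100598 to 61132149, plus strand), the receptor for CSF1 and IL-34, was highest in macrophages in all 4 libraries among the types with at least 50 cells in each genotype. M1 macrophages had 496 CPM in KO sorted cells, against 382 CPM in WT sorted cells, and 361 CPM in KO tumor cells, against 335 CPM in WT tumor cells. M2 macrophages had 417 CPM in KO sorted and 299 CPM in WT sorted cells, and 249 CPM in KO tumor and 39.6 CPM in WT tumor cells. The WT tumor M2 macrophages were thus the only macrophage group below 200 CPM, and their make-up is given further on. Myeloid dendritic cells followed in the sorted libraries, with 206 CPM in KO and 243 CPM in WT, and the first 3 places in the order, M1 macrophages, M2 macrophages and myeloid dendritic cells, had intervals apart in both genotypes. Neutrophils had 37.8 CPM in KO and 32.2 CPM in WT sorted cells. B cells, which should lack the receptor, had 4.02 CPM in KO and 4.48 CPM in WT sorted cells.

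Csf2ra, the GM-CSF-binding chain, was found at like levels in several myeloid types. Neutrophils had 259 CPM in KO and 217 CPM in WT sorted cells, myeloid dendritic cells 216 and 237 CPM, and M2 macrophages 204 and 184 CPM, in the same order of genotypes. The intervals of these 3 types overlapped their neighbours in both genotypes, so no order among them is given. M1 macrophages were lower, with 157 CPM in KO and 134 CPM in WT sorted cells. CD11c+ resident dendritic cells had 121 CPM in KO (65 cells) and 142 CPM in WT (30 cells), and migratory dendritic cells 82.0 CPM in KO (90 cells) and 90.2 CPM in WT (46 cells). B cells had 13.9 CPM in KO and 11.8 CPM in WT, against 10.2 and 7.58 CPM in KO and WT fibroblasts and 7.09 and 6.30 CPM in KO and WT neuroblastoma cells of the tumor libraries. The levels of these fibroblasts and neuroblastoma cells were thus below those of sorted B cells in the same genotype.

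Csf2rb, the shared beta chain, led in neutrophils and was also found in dendritic cells. Neutrophils had 859 CPM in KO and 479 CPM in WT sorted cells. Migratory dendritic cells had 288 CPM in KO and 323 CPM in WT, and plasmacytoid dendritic cells 212 CPM in KO (34 cells) and 273 CPM in WT (17 cells). M2 macrophages had 178 CPM in KO and 177 CPM in WT sorted cells, and M1 macrophages 102 CPM in KO and 48.3 CPM in WT. M2 macrophages were thus above M1 macrophages in both sorted libraries, by a log2 ratio of 0.81 (0.64 to 0.98) in KO and 2.02 (1.91 to 2.13) in WT, relative to the median gene of that comparison. B cells had 6.70 CPM in KO and 1.92 CPM in WT. Csf2rb2, the IL-3-specific chain, was at 227 CPM in KO and 101 CPM in WT neutrophils, and at 268 CPM in KO and 267 CPM in WT plasmacytoid dendritic cells.

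Csf3r, the G-CSF receptor, was far above all other types in neutrophils, the cells G-CSF acts on. Neutrophils had 1373 CPM (1209 to 1553) in KO and 699 CPM (655 to 744) in WT sorted cells, and in the small tumor samples 965 CPM in KO (21 cells) and 659 CPM in WT (17 cells). Among types with at least 50 cells in each genotype macrophages came next in both sorted libraries, M2 before M1, with intervals apart at each step: M2 macrophages had 98.6 CPM in KO and 38.2 CPM in WT, and M1 macrophages 55.9 CPM in KO and 19.5 CPM in WT. Myeloid dendritic cells had 6.13 CPM in KO and 7.10 CPM in WT. B cells had 3 UMIs in 943 KO sorted cells and 0 in 972 WT sorted cells, which allows a share of cells with a UMI of up to 0.309% by the rule of 3 counts (the exact upper bound is 0.379%). Fibroblasts had 0.212 CPM in KO and 0.0831 CPM in WT tumor cells, and neuroblastoma cells 0.0959 CPM in KO and 0 UMIs in WT.

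**Figure D1:**
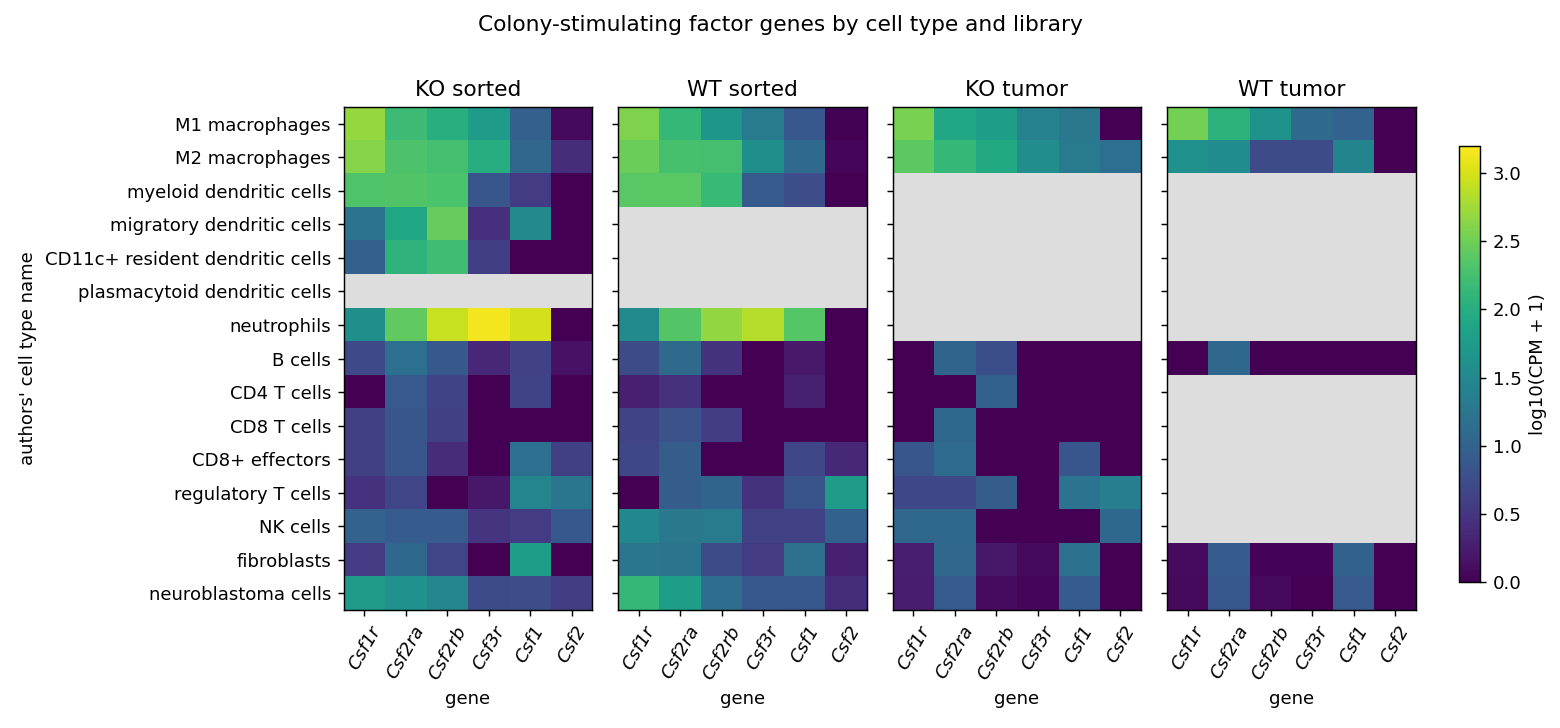
Level of the 6 genes (CPM on a log scale, colour) by the authors' cell type (rows) in each library (columns). In the sorted libraries Csf2ra and Csf2rb are high in macrophages, dendritic cells and neutrophils, and Csf1r in macrophages and myeloid dendritic cells. Csf3r is highest in neutrophils (1373 CPM in KO and 699 CPM in WT sorted cells). Csf2 is highest in the regulatory T cell class (17.2 CPM in KO and 58.3 CPM in WT sorted cells).

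Between genotypes, macrophages carried more Csf3r RNA in KO than in WT in both preparations, Csf1r and Csf2ra differed by less than 1.5-fold, and Csf2rb was higher in KO by more than 1.5-fold in the tumor libraries alone. The calls of Csf1r in the tumor libraries and of Csf2rb in the sorted libraries changed with the processing, as given with their values. M1 and M2 macrophages were pooled, 761 KO and 1577 WT sorted cells and 371 KO and 191 WT tumor cells. When UMIs were scaled by library totals alone, the gene in the middle of the ranking had a KO to WT log2 ratio of 0.33 in both preparations, so all ratios are given relative to the median gene of the cell type and preparation. A gene was counted as higher or lower from 1.5-fold, if it had at least 20 UMIs over both libraries. By this rule 1 of 5 counted genes (Csf3r) was higher and 0 lower in the sorted libraries, where 21.5% of all genes counted were higher and 23.5% lower. In the tumor libraries 2 of 5 (Csf2rb and Csf3r) were higher and 0 lower, where 17.7% of all genes were higher and 15.2% lower. In both preparations at once 1 of 5 was higher and 0 lower, against 8.5% and 7.13% of 9726 genes. By total UMIs 4646 genes were higher and 1607 lower in the sorted libraries, against 2709 and 2970 relative to the median gene, and 3328 higher and 674 lower in the tumor libraries, against 1770 and 1522. In the 11 comparisons counted here, 24.3% to 47.1% of all genes were higher and 6.75% to 16.6% lower by total UMIs. Median depth per cell was 7955 UMIs in KO and 18239 in WT sorted macrophages, and 2993 in KO and 11579 in WT tumor macrophages.

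Csf3r had 73.9 CPM (68.4 to 79.8) in KO and 24.2 CPM (22.5 to 25.9) in WT sorted macrophages, from 649 and 808 UMIs, and 30.0 CPM (23.0 to 38.5) in KO and 8.11 CPM (4.81 to 12.8) in WT tumor macrophages, from 62 and 18 UMIs. The KO library was above the WT library in both preparations, with intervals apart. KO over WT, the log2 ratio was 1.28 (1.13 to 1.43) for sorted cells and 1.56 (0.78 to 2.40) for tumor cells. A UMI of Csf3r was seen in 44.8% of KO and 30.4% of WT sorted macrophages, and in 12.7% of KO and 8.38% of WT tumor macrophages. With each cell thinned to 2000 UMIs, and shallower cells left out, the shares were 16.6% of 657 KO and 5.74% of 1497 WT sorted cells, and 8.86% of 237 KO and 2.10% of 143 WT tumor cells. In sorted B cells, at medians of 2168 UMIs in KO and 3118 in WT, the thinned shares were 0.352% in KO and 0% in WT.

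Csf2rb had 134 CPM in KO and 80.6 CPM in WT sorted macrophages, a ratio of 0.41 (0.31 to 0.50), and 73.2 CPM in KO and 23.0 CPM in WT tumor macrophages, a ratio of 1.34 (0.87 to 1.82). Among sorted cells this ratio passed 1.5-fold by total UMIs (0.74), in M1 macrophages alone (0.78) and among cells without a Ly6c2 or Ccr2 UMI (0.84). It was -0.12 after thinning, 0.01 with equal weight per cell and -0.37 in M2 macrophages alone. The summed UMIs of Csf2rb and Csf2rb2 came to 176 CPM in KO and 108 CPM in WT sorted cells (0.37), and 97.9 CPM in KO and 40.6 CPM in WT tumor cells (0.94). Csf2rb was 76.3% of their joint UMIs in KO and 74.5% in WT sorted macrophages.

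Csf1r had 463 CPM in KO and 361 CPM in WT sorted macrophages, from 4060 and 12072 UMIs, and 310 CPM in KO and 187 CPM in WT tumor macrophages. For Csf1r the log2 ratio was 0.02 (-0.03 to 0.08) among sorted and 0.40 (0.22 to 0.58) among tumor macrophages. Csf2ra had 177 CPM in KO and 147 CPM in WT sorted macrophages and 104 CPM in KO and 75.7 CPM in WT tumor macrophages, with ratios of -0.06 (-0.15 to 0.02) and 0.12 (-0.18 to 0.42). The tumor Csf1r ratio passed 1.5-fold by total UMIs (0.73), among cells with at least 1000 UMIs and at most 10% mitochondrial UMIs (0.62), after thinning (0.76) and with equal weight per cell (0.71), and it was -0.14 in M1 and 2.24 in M2 macrophages. By total UMIs the sorted Csf2ra ratio was 0.27, so its sign turned with the scaling. The tumor Csf2ra ratio was -0.81 in M1 and 1.52 in M2 macrophages, and -0.60 among cells without a Ly6c2 or Ccr2 UMI. The sorted intervals of both genes lie within 1.5-fold in either direction.

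**Figure D2:**
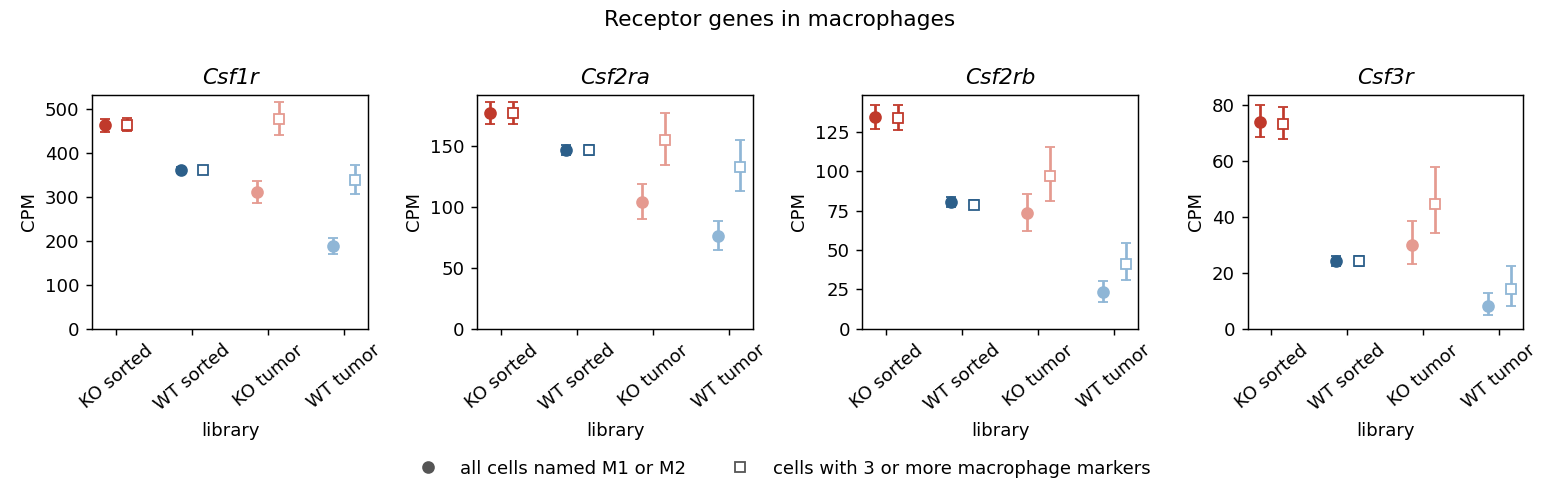
Level (CPM, linear axis) of the 4 receptor genes in pooled M1 and M2 macrophages of each library with exact Poisson intervals, for all cells and for cells with at least 3 macrophage markers. Csf3r is higher in KO in both preparations (73.9 against 24.2 CPM sorted, 30.0 against 8.11 CPM tumor). The tumor levels of all 4 genes are higher among cells with at least 3 markers, in KO and in WT.

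The pooled macrophages differed between genotypes in the markers they carried. At least 3 of 10 macrophage markers were seen in 713 of 761 KO and 1540 of 1577 WT sorted cells, and in 300 of 371 KO and 122 of 191 WT tumor cells. Among these cells Csf3r had 73.3 CPM in KO and 24.2 CPM in WT sorted cells (1.27), and 44.7 CPM in KO and 14.0 CPM in WT tumor cells (1.49, 0.69 to 2.36). Csf2rb had 96.9 CPM in KO and 41.2 CPM in WT tumor cells (1.05, 0.57 to 1.56), Csf1r 476 and 339 CPM (0.31), and Csf2ra 155 and 133 CPM (0.04). The same 2 genes were thus higher in the tumor libraries with and without the other cells. This choice of cells was made after the values were seen.

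In pooled M1 and M2 macrophages, markers of neutrophils, the cells with the most Csf3r, were lower in KO than in WT sorted cells, with 4 of 5 above 0 and 96.7 CPM in sum in KO (Retnlg at 0), and 5 of 5 and 311 CPM in WT. They were higher in KO tumor macrophages, with 3 of 5 and 35.9 CPM, against 2 of 5 and 2.70 CPM in WT tumor macrophages. Without the cells that carry a neutrophil marker, Csf3r had 74.5 CPM in KO and 20.7 CPM in WT sorted cells (1.49), and 29.0 CPM in KO and 8.49 CPM in WT tumor cells (1.44). Ly6c2 and Ccr2, genes of monocytes, were seen in 443 of 761 KO and 693 of 1577 WT sorted cells, and in 133 of 371 KO and 19 of 191 WT tumor cells. Among sorted cells with a UMI of either, Csf3r had 85.5 CPM in KO and 32.1 CPM in WT (1.09), and among those without, 57.7 CPM in KO and 18.9 CPM in WT (1.31). In the tumor libraries the ratio was 0.85 (-0.50 to 2.55) with and 1.00 (-0.04 to 2.11) without such a UMI, intervals that span 0. Csf2rb differed between these cells: 154 CPM in KO and 129 CPM in WT sorted cells with a UMI (-0.06), and 107 CPM in KO and 48.4 CPM in WT without (0.84).

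**Figure D3:**
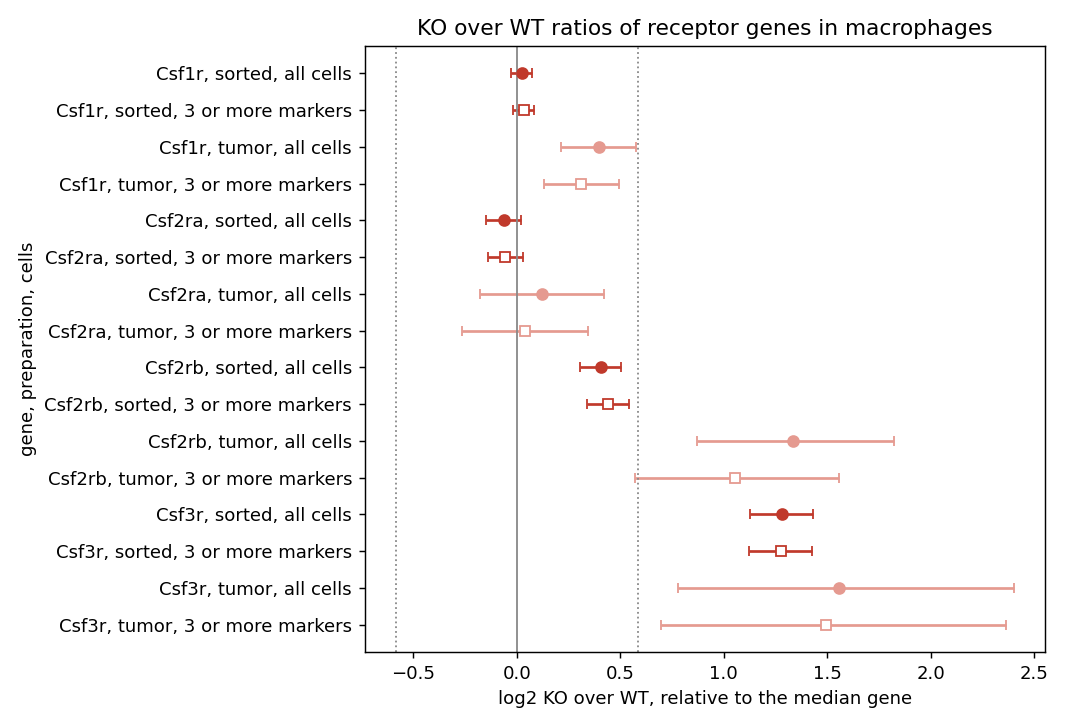
Log2 ratio KO over WT, relative to the median gene, of each gene in pooled M1 and M2 macrophages of the sorted and tumor libraries, with conditional binomial intervals, for all cells and for cells with at least 3 macrophage markers. Csf3r lies past 1.5-fold in both preparations (1.28 and 1.56), and the sorted ratios of Csf1r and Csf2ra lie near 0 (0.02 and -0.06).

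Within the authors' M1 and M2 names the genes did not all behave alike. In sorted M1 macrophages 2 of 5 counted genes were higher, Csf3r (1.21, 1.00 to 1.43) and Csf2rb (0.78, 0.63 to 0.93), and 0 lower, where 21.4% of all genes were higher and 23.6% lower. In sorted M2 macrophages Csf3r was higher (0.99, 0.77 to 1.21), which was 1 of 5, and 0 were lower, against 19.2% and 22.2% of all genes. Csf2rb there had a ratio of -0.37 (-0.50 to -0.24), and Csf2rb2 of -0.76 (-1.05 to -0.48). Thinned shares of cells with a Csf3r UMI were 11.0% in KO and 4.31% in WT sorted M1 macrophages, and 20.7% in KO and 7.79% in WT sorted M2 macrophages.

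In tumor M1 macrophages (203 KO and 110 WT cells) Csf1 (0.74) and Csf3r (0.84) were higher, 2 of 5 where 19.3% of all genes were, but the intervals of both span 0 (the lower bounds are -0.43 and -0.15), from 20 and 10 UMIs of Csf1 and 28 and 13 of Csf3r in KO and WT. Csf2ra was lower (-0.81, -1.22 to -0.41), 1 of 5 against 14.5% of all genes. It had 78.5 CPM in KO and 116 CPM in WT. The 34 KO tumor M1 cells with fewer than 3 macrophage markers had 0 UMIs of Csf1r and Csf2ra, and among the cells with at least 3 markers Csf2ra had 112 CPM in KO and 121 CPM in WT. The same 34 cells held 15 of the 20 KO Csf1 UMIs, and among the cells with at least 3 markers Csf1 had 6.35 CPM in KO and 8.52 CPM in WT, from 5 and 9 UMIs. These 34 cells also held 20 of the 69 KO Csf2rb UMIs, at 59.9 CPM. The KO cells with at least 3 markers had 62.2 CPM of Csf2rb.

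In tumor M2 macrophages (168 KO and 81 WT cells) all 4 receptor genes were higher, 4 of 5 counted where 25.4% of all genes were, and Csf1 was lower (-0.91, -1.84 to -0.02), 1 of 5 against 23% of all genes. The ratios were 2.24 for Csf1r, 1.52 for Csf2ra, 3.86 for Csf2rb (82 KO and 5 WT UMIs) and 2.59 for Csf3r (34 and 5 UMIs). Fewer than 3 macrophage markers were seen in 37 of the 168 KO and 60 of the 81 WT cells. These 60 WT cells had 3.15 CPM of Csf1r, 12.6 CPM of Ptprc, 463 CPM of Il1rl1, the IL-33 receptor gene, and 75.5 CPM of Csf3, the gene of G-CSF, with all 72 Csf3 UMIs of the WT class. The other 21 WT cells had 261 CPM of Csf1r, 210 CPM of Csf2ra, 31.8 CPM of Csf2rb and 25.4 CPM of Csf3r. Among cells with at least 3 markers Csf2ra had 218 CPM in KO and 210 CPM in WT. Fibroblast markers in the tumor M1 and M2 macrophages, 6 of 6 above 0 in both genotypes, summed to 292 CPM in KO and 1040 CPM in WT. Ptprc, Il1rl1 and Csf3 were chosen after their values were seen.

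Neutrophils, the type with the highest Csf3r, had 87 KO and 432 WT sorted cells, and of the 6 genes Csf1 had the largest ratio between genotypes there. Csf1 had 973 CPM in KO and 228 CPM in WT (180 and 311 UMIs), a ratio of 1.59 (1.32 to 1.86). It was 1 of 5 counted genes higher, where 29.5% of all genes were, and 0 were lower, against 29.8% of all genes. The ratios of the receptor genes were 0.47 (0.27 to 0.67) for Csf3r, 0.34 (0.08 to 0.59) for Csf2rb, -0.25 (-0.72 to 0.20) for Csf2ra and -0.27 (-1.67 to 0.89) for Csf1r. Csf2 had 0 UMIs in both.

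A marker of mast cells or basophils was seen in 16 of the 87 KO and 5 of the 432 WT neutrophils. Over the whole class 3 of the 6 markers were above 0 in KO, at 259 CPM in sum, with Cma1, Mcpt4 and Kit at 0, and 5 of 6 in WT, at 63.8 CPM. The 16 KO cells had 2321 CPM of Csf1, 125 of the 180 UMIs, with a UMI in 14 of the 16, and 1708 CPM of Csf2rb, with a UMI in all 16. They had 0 of the 254 Csf3r UMIs and 0 UMIs of S100a8, the defining neutrophil gene. They had 3417 CPM of Gata2, a gene of mast cells and basophils. Their 409 CPM of Ms4a2 is no separate evidence of what they are, because Ms4a2 is 1 of the 6 markers that picked them. Without the marked cells, 71 KO and 427 WT cells, Csf3r had 1937 CPM in KO and 700 CPM in WT (0.99, 0.79 to 1.19). Csf1 had 419 CPM in KO and 229 CPM in WT (0.39, -0.05 to 0.81), Csf2rb 511 and 478 CPM (-0.38), and Csf2ra 351 and 216 CPM (0.22). Among these cells Csf3r was the 1 gene of 5 counted that was higher, where 26.6% of all genes were, and 0 were lower, against 29.3%. Csf2rb2 turned to -1.15 there, with 61.0 CPM in KO and 97.2 CPM in WT. The split was not clean. Of the 71 KO cells without a marker, 2 held 19 Gata2 UMIs, against 0 in the 427 WT cells. Of the 5 marked WT cells, 2 held 826 S100a8 UMIs. This choice of cells was made after the values were seen, and so were Gata2, Ms4a2 and S100a8.

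**Figure D4:**
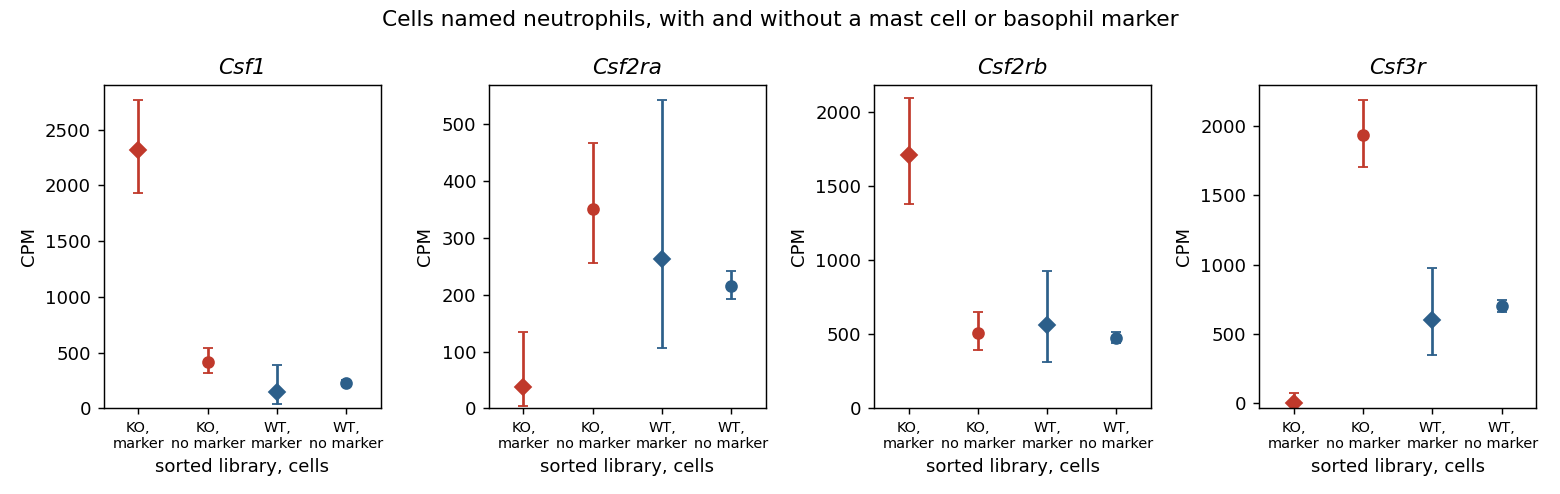
Level (CPM) of the genes in sorted neutrophils of KO and WT, for cells with and without a mast cell or basophil marker, with exact Poisson intervals. In KO the 16 cells with a marker hold 2321 CPM of Csf1 and 0 Csf3r UMIs, and the 71 cells without hold 419 CPM of Csf1 and 1937 CPM of Csf3r.

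Myeloid dendritic cells, which take up and present antigen, had 176 KO and 117 WT sorted cells. Of 5 counted genes 0 were higher, where 17.3% of all genes were, and Csf1 was lower (-1.14, -2.64 to 0.27), from 8 KO and 12 WT UMIs, 1 of 5 against 17.3% of all genes. Csf1r had a ratio of -0.50 (-0.66 to -0.34) and Csf2ra of -0.40 (-0.56 to -0.24). Csf2rb had 198 CPM in KO and 148 CPM in WT, a ratio of 0.15 (-0.03 to 0.34).

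Csf1, the ligand of CSF1R, came from different cells in the 2 preparations, which by the CD45 sort also hold different cells. In the sorted libraries neutrophils held 35.0% of its 515 KO UMIs and 43.1% of its 722 WT UMIs, although they were 2.02% of KO and 8.28% of WT cells. Of the 180 KO UMIs of this class, 125 came from the 16 cells with a mast cell or basophil marker and without Csf3r, and 55 from the other 71 cells. Sorted M1 and M2 macrophages held 83 Csf1 UMIs in KO and 257 in WT. Sorted cells named fibroblasts held 114 in KO, 32 of them in 1 cell, and 64 in WT. In the tumor libraries cells named fibroblasts held 62.6% of 1148 KO and 51.5% of 825 WT UMIs, and cells named neuroblastoma 27.5% in KO and 41.1% in WT. The fibroblasts were 2493 of 5897 KO and 2461 of 4955 WT cells, and the neuroblastoma cells 1283 and 1665. Over all cells Csf1 had 11.1 CPM in the KO and 7.99 CPM in the WT tumor library. Fibroblasts had 15.2 CPM in KO and 8.83 CPM in WT, and neuroblastoma cells 7.57 and 6.74 CPM. Macrophages, which carry the receptor, had 9.46 CPM of Csf1 in KO and 7.69 CPM in WT sorted cells, and 18.4 CPM in KO and 18.0 CPM in WT tumor cells, with ratios of -0.03 (-0.41 to 0.33) and -0.30 (-0.98 to 0.37). In the tumor libraries cells with at least 3 macrophage markers held 12 of the 38 KO and 9 of the 40 WT UMIs, at 9.09 CPM in KO and 7.41 CPM in WT (0.11, -1.26 to 1.54). Migratory dendritic cells had 31.5 CPM (21.96 to 43.86) in KO and 4.92 CPM (1.01 to 14.4) in WT, from 35 UMIs in 90 KO cells, 18 of them in 1 cell, and 3 UMIs in 46 WT cells. B cells had 3.13 CPM in KO and 0.640 CPM in WT sorted cells.

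In fibroblasts of the tumor libraries (2493 KO and 2461 WT cells) Csf1 had 15.2 CPM in KO and 8.83 CPM in WT, from 719 and 425 UMIs, a ratio of 0.48 (0.31 to 0.66) that lies under 1.5-fold. Of 4 counted genes 2 were higher, Csf1r (1.59, 0.60 to 2.70) and Csf2rb (2.95, 1.25 to 5.31), where 19.3% of all genes were, and 0 were lower, against 16.6%. Both rest on few UMIs, 40 in KO and 11 in WT for Csf1r and 28 in KO and 3 in WT for Csf2rb, of which 11 KO UMIs came from 1 cell. The Csf1r UMIs were in 23 KO and 5 WT cells, and the Csf2rb UMIs in 13 KO and 3 WT cells. Macrophage markers were lower in KO fibroblasts, with 10 of 10 above 0 and 165 CPM in sum in KO, and 9 of 10 and 299 CPM in WT (Ly6c2 at 0). Cells with markers of 2 lineages, 3 of each, were more frequent in KO, at 2.13% of fibroblasts against 1.02% in WT. The part of macrophage RNA in these UMIs was not tested.

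In neuroblastoma cells of the tumor libraries (1283 KO and 1665 WT cells) Csf1 had 7.57 CPM in KO and 6.74 CPM in WT, a ratio of -0.04 (-0.26 to 0.19), and Csf2ra a ratio of -0.04 (-0.27 to 0.20). Csf1r was higher (1.83, 0.78 to 3.01), 1 of 4 where 16.4% of all genes were, from 34 KO and 10 WT UMIs, and 0 were lower, against 16.2%. Of the 34 KO UMIs, 25 came from 14 cells with at least 3 macrophage markers, and the other 1269 KO cells had 0.218 CPM. Il34, the second ligand of CSF1R, had 2.69 CPM in KO and 0.976 CPM in WT fibroblasts, and 0.839 CPM in KO and 0.219 CPM in WT neuroblastoma cells.

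Csf2, the gene of GM-CSF, was rare, with 64 UMIs in the KO sorted, 71 in the WT sorted, 24 in the KO tumor and 0 in the WT tumor library. The class named regulatory T cells led in both sorted libraries, with 17.2 CPM in KO (28 UMIs in 396 cells) and 58.3 CPM in WT (30 UMIs in 94 cells), 43.8% of the KO and 42.3% of the WT UMIs. The log2 ratio there was -2.17 (-2.97 to -1.38). The WT UMIs were in 7 cells and the KO UMIs in 15. The class also differed in make-up between genotypes. Foxp3 had 366 CPM in KO and 93.3 CPM in WT cells with a Cd3d, Cd3e or Cd3g UMI, and Ctla4 1383 and 338 CPM. Markers of 2 lineages, 3 of each, were seen in 10.6% of KO and 40.4% of WT cells of the class. Csf2 was lower by 1.5-fold, 1 of 2 counted genes where 25.3% of all genes were, and Csf1 higher (1.84, 0.20 to 4.17; 45 KO and 3 WT UMIs), 1 of 2 against 25.4%. A single cell with no Cd3d, Cd3e or Cd3g UMI held 12 of the 30 WT UMIs. Among cells with a UMI of these 3 genes Csf2 had 16.5 CPM (10.8 to 24.2) in KO (371 cells) and 35.8 CPM (21.2 to 56.5) in WT (92 cells). These intervals of the levels overlap, which does not show that the levels are alike, and no ratio relative to the median gene is given for these cells. Of 6 markers of group 2 innate lymphoid cells, which also make GM-CSF, 6 were above 0 in KO, at 2523 CPM in sum, and 5 in WT, at 811 CPM (Il5 at 0). In KO, the 371 cells with a Cd3d, Cd3e or Cd3g UMI held 73 Il5, 161 Il13, 624 Il1rl1, 906 Gata3 and 952 Areg UMIs. The 25 KO cells without such a UMI held 0, 0, 41, 30 and 45, in the same order. By level, Il1rl1 had 397 CPM in the cells with and 712 CPM in the cells without. The part of innate lymphoid cells in the result was not tested.

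Csf2 UMIs outside the regulatory T cell class were spread over several types. NK cells, cytotoxic innate lymphocytes, had 6.63 CPM in KO and 8.73 CPM in WT sorted cells, from 13 and 21 UMIs. Of the 21 WT UMIs, 12 came from 1 cell. Sorted neuroblastoma-named cells had 10 UMIs in KO and 13 in WT, 7 of the WT ones in 1 cell. Sorted macrophages had 7 UMIs in KO and 2 in WT. Tumor macrophages had 13 in KO, all M2 and all in 2 cells (10 and 3), and 0 in WT. Of these 2 cells, the one with 3 UMIs had at least 3 macrophage markers and the one with 10 had fewer. Neutrophils and dendritic cells of the sorted libraries, which carry both receptor chains, and fibroblasts and neuroblastoma cells of the tumor libraries had 0 Csf2 UMIs in both genotypes. For scale, 3 counts would be 0.0635 CPM in KO and 0.0623 CPM in WT fibroblasts of the tumor libraries, but 16.2 CPM in KO and 2.20 CPM in WT sorted neutrophils, so low Csf2 was not detectable in the neutrophils at this depth.

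Among genes that act with or after these receptors, targets and feedback genes of STAT5 and STAT3 were higher in KO macrophages most often of the 5 lists compared. Of 10 such genes, 6 were higher by 1.5-fold in both preparations (Cish, Socs1, Socs2, Pim1, Ccnd2 and Osm) and 0 lower, against 8.5% and 7.13% of all genes. In the sorted libraries alone 6 of 10 were higher and 0 lower, with a median log2 ratio of 0.88, and in the tumor libraries 7 of 10 and 0, with a median of 1.24, where the median of all genes is 0 by construction. Among cells with at least 3 macrophage markers these counts were 6 of 10 (median 0.87), where 21.4% of all genes were higher and 23.3% lower, and 7 of 10 (1.09), against 19.3% and 14.8%. Macrophages bind other cytokines that use the same factors, and which receptor stands behind these values was not tested. The 5 lists were chosen with earlier results of these data known, so their counts beside those of all genes are descriptions and no test of a list.

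Socs2, a feedback inhibitor of cytokine receptors, had 43.7 CPM in KO and 4.70 CPM in WT sorted macrophages (2.89), and 25.2 CPM in KO and 12.2 CPM in WT tumor macrophages (0.72). Cish, a STAT5-induced inhibitor, had 52.3 CPM in KO and 6.67 CPM in WT sorted cells (2.64), and 23.3 CPM in KO and 3.60 CPM in WT tumor cells (2.36). Ccnd2, which encodes cyclin D2, had 80.1 CPM in KO and 16.5 CPM in WT sorted cells (1.94), and 28.1 CPM in KO and 0.902 CPM in WT tumor cells, from 58 and 2 UMIs (4.63). All 3 genes were thus higher in KO in both preparations, with ratios that differ between them. Socs3, the feedback inhibitor of the G-CSF receptor, had ratios of 0.01 sorted and 1.72 tumor.

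Of 15 adaptors and transducers 6 were higher and 1 lower in the sorted libraries and 3 higher and 1 lower (Shc1) in the tumor libraries. Of all genes 21.5% were higher and 23.5% lower in the sorted libraries, and 17.7% and 15.2% in the tumor libraries, so 3 of 15 lies near the share of all genes. In both preparations 3 were higher and 0 lower, against 8.5% and 7.13% of all genes: Jak2, the kinase bound to the beta chain, with 85.6 CPM in KO and 20.5 CPM in WT sorted cells (1.73) and 48.4 and 23.4 CPM in KO and WT tumor cells (0.71), Stat5b (0.75 and 0.87) and Inpp5d (0.63 and 0.97), which encodes the phosphatase SHIP1. Tyrobp, an adaptor that CSF1R signalling uses, was lower in the sorted libraries (-1.22) and had -0.25 in the tumor libraries. The list's medians were 0.44 sorted and 0.33 tumor. Of 9 transcription factor genes of myeloid receptor expression, 6 were counted in both preparations and 0 were higher or lower in both. In the sorted libraries 4 of 9 were higher (Runx1, Cebpe, Irf4 and Gfi1) and 2 lower (Spi1 and Pparg), with a median of 0.24, against 21.5% and 23.5% of all genes, so the count of lower genes lies near the share of all genes. In the tumor libraries 0 of 6 were higher or lower, with a median of 0.0073. Spi1, which encodes PU.1, had ratios of -0.86 sorted and -0.12 tumor. Of 5 other receptor chains 2 were counted in both preparations, Csf2rb2 and Il3ra, and 0 were higher or lower in both, with medians of 0.72 over 4 sorted and 0.24 over 2 tumor genes. Of 4 other ligands, Csf3 alone was counted, with ratios of 3.23 in the sorted libraries (28 KO and 9 WT UMIs) and -1.76 in the tumor libraries (25 KO and 72 WT UMIs, the WT ones all in M2 cells with fewer than 3 macrophage markers). These counts rest on few cells: 27 of the 28 KO sorted UMIs were in 3 cells (18 in 1), the 25 KO tumor UMIs in 2 cells (20 in 1) and the 72 WT tumor UMIs in 4 cells (52 in 1).

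**Figure D5:**
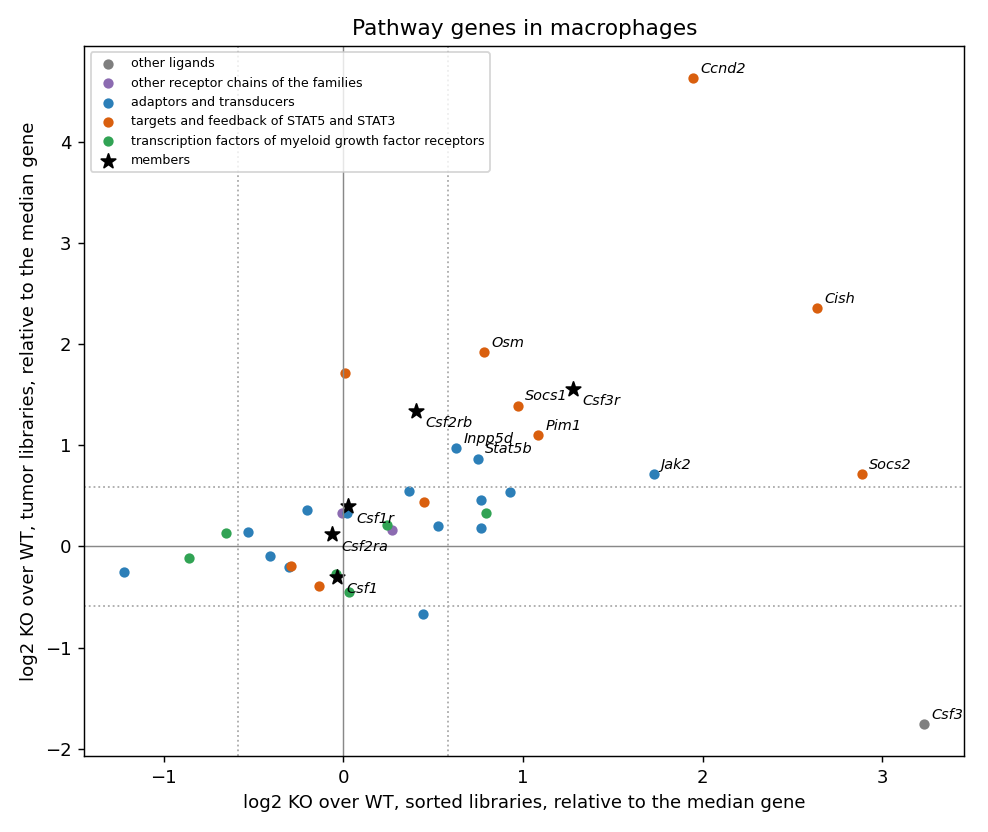
Log2 ratio KO over WT, relative to the median gene, of the listed pathway genes in pooled macrophages, sorted libraries on the x axis and tumor libraries on the y axis, with lines at 1.5-fold. Cish (2.64 and 2.36), Ccnd2 (1.94 and 4.63) and Csf3r (1.28 and 1.56) lie past the lines in both preparations, and Csf3 lies on opposite sides (3.23 and -1.76).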

How the data were processed

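Per the labels' protocols, cells had been captured with the 10x Genomics 3′ V3 kit, and Cell Ranger 6.0.1, Seurat 4.0.5 and mm10 are named in the submitters' processing notes. The matrix the authors deposited holds natural log values, ln(1 + 10000 × UMIs / total UMIs of the cell), and the UMI counts per cell and cell type names were deposited beside it. UMIs were recovered by inverting the formula: each of 60957742 values above 0 came within 0.01 of a whole UMI, and the sums of 20376 of 20376 cells equalled the deposited totals. How cells were filtered is not given in the sources used here.

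UMIs were summed per gene, cell type and library and scaled to CPM. For CPM the 95% intervals are exact Poisson ones, shares have Clopper-Pearson intervals, and ratios have conditional binomial ones. Ratios KO over WT are relative to the median gene with at least 20 UMIs, for types with at least 50 cells in each genotype, and calls are at 1.5-fold. No doublets were removed. The doublet rule, 3 markers in each of 2 lineages, marked 7.41% of KO sorted, 14.2% of WT sorted, 2.09% of KO tumor and 1.41% of WT tumor cells. The summing and ratio steps were tested on simulated data.

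The genes were given, and the 5 lists of 43 pathway genes, the markers and the thresholds were chosen with earlier results of these data known. The genes named from each list are up to 3 with the largest ratio that pass in both preparations, Jak2, Spi1 and those against a list. Likeness was Pearson's r of log2(CPM + 1). Numpy 2.4.6, scipy 1.17.1, pandas 2.3.3 and matplotlib 3.10.9 were used with Python 3.11.15. Il3 was not analysed here, and 1 gene is not reported here.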

Additional observations from a re-analysis of the deposited data

Results flagged for a closer look

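For 2 receptor genes the difference between genotypes had opposite directions in cells or preparations set side by side, by log2 ratios KO over WT relative to the median gene. None of these differences was tested, since each group was 1 library. For Csf2ra in the tumor libraries the ratio was -0.815 in M1 and 1.52 in M2 macrophages. Among tumor cells with at least 3 macrophage markers, which leaves out 34 of 203 KO and 9 of 110 WT M1 cells and 37 of 168 KO and 60 of 81 WT M2 cells, Csf2ra had 112 CPM in KO and 121 CPM in WT M1 macrophages, and 218 CPM in KO and 210 CPM in WT M2 macrophages, with intervals that overlap in both. For Csf2ra in M2 macrophages it was -0.237 among sorted cells and 1.52 among tumor cells, the last with the same 60 WT cells included. For Csf2rb in the sorted libraries it was 0.777 in M1 and -0.37 in M2 macrophages. For Csf2rb in M2 macrophages it was -0.37 among sorted cells and 3.86 among tumor cells, the last from 82 KO and 5 WT UMIs. Among tumor M2 cells with at least 3 markers Csf2rb had 148 CPM in KO and 31.8 CPM in WT.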

How the results depend on the processing

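With 1 library a group, the animals, tumors and captures behind a difference cannot be told apart from genotype, and counts under about 20 UMIs (most values of Csf2, and Csf1 outside neutrophils, fibroblasts and neuroblastoma cells) give wide intervals. No paired analysis was possible because the cells carry no sample or replicate number, and leaving out replicates was not possible for the same reason. Of the ratios under other settings, 303 stayed within the interval of the reported value, 117 moved outside it, and 5 that had passed 1.5-fold turned sign. Ratios under 1.5-fold that changed sign are counted among the 303 and 117. The 5 were Csf1 in myeloid dendritic cells (0.76), in regulatory T cells (-0.62) and in tumor M1 macrophages (-0.81) and Csf2rb in tumor fibroblasts (-0.92), all with thinned cells, and Csf2rb2 in neutrophils without cells with a mast cell or basophil marker (-1.15).

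In neutrophils the Csf1 ratio was 2.09 by total UMIs, 1.89 thinned, 1.25 with equal weight per cell and 0.39 without the marked cells. In sorted macrophages Csf1r moved to 0.36 by total UMIs, 0.13 without doublets, 0.082 thinned, 0.11 without shared barcodes, 0.10 in M2 alone and 0.15 without a Ly6c2 or Ccr2 UMI, all under 1.5-fold. Csf2ra moved to 0.27 by total UMIs, -0.19 thinned, -0.20 with equal weight and -0.24 in M2 alone. Csf2rb had 0.74 by total UMIs, 0.54 without doublets, -0.12 thinned, 0.014 with equal weight, 0.78 in M1, -0.37 in M2, -0.064 with and 0.84 without a Ly6c2 or Ccr2 UMI. Csf3r had 1.61 by total UMIs, 1.60 without doublets, 0.99 in M2, 1.49 without neutrophil-marker cells and 1.09 with a Ly6c2 or Ccr2 UMI, and passed 1.5-fold in each setting tried in both preparations.

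In tumor macrophages Csf1r had 0.73 by total UMIs, 0.62 with the stricter cell filter, 0.76 thinned, 0.71 with equal weight, -0.14 in M1, 2.24 in M2 and 0.13 without a Ly6c2 or Ccr2 UMI. Csf2ra had 0.45 by total UMIs, 0.44 thinned, -0.81 in M1, 1.52 in M2 and -0.60 without such a UMI. Csf2rb had 1.92 thinned, 0.32 in M1, 3.86 in M2, 2.01 with and 0.66 without such a UMI, and Csf3r 2.59 in M2. Counts of genes past 1.5-fold in macrophages were 2709 higher and 2970 lower in the sorted libraries, against 4646 and 1607 by total UMIs and 4514 higher with at least 1 UMI. In the tumor libraries they were 1770 higher and 1522 lower, against 3328 and 674 by total UMIs, 1162 and 1008 with at least 50 UMIs and 3540 and 3289 with at least 1 UMI. The cause of these moves was not tested.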

Other observations

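Across 50 points (a cell type in a library with at least 50 cells), the genes whose levels ran most like each receptor gene, of 13811 genes with at least 200 UMIs, were as follows, by Pearson's r of log2(CPM + 1). Points share libraries and differ in depth, so r is a description. The choice of genes depends on the measure: by Spearman's rho 1 to 3, and with a pseudocount of 10 CPM 1 to 4, of the 5 genes given for each were still among the nearest 5. For Csf1r they were C3ar1 (0.962), Dab2 (0.954), Clec4a1 (0.949), Lrrc25 (0.943) and C1qa (0.942). For Csf2ra they were Csf2rb2 (0.907), Tlr13 (0.896), Ptafr (0.895), Pirb (0.889) and I830077J02Rik (0.888). For Csf2rb they were Gpr35 (0.929), Csf2rb2 (0.913), Tlr13 (0.908), Nfam1 (0.899) and Ptafr (0.896), of which Csf2rb2, Tlr13 and Ptafr are also nearest to Csf2ra. For Csf3r they were C5ar2 (0.929), Cd14 (0.911), Nlrp3 (0.908), Cd33 (0.908) and F630028O10Rik (0.903).

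Both ligands had looser company. For Csf1 the nearest were Grina (0.832), Mmp9 (0.779), Egln3 (0.776), Steap4 (0.767) and Dmxl2 (0.756), and for Csf2 Il12rb1 (0.804), Zbtb16 (0.796), Klrg1 (0.780), Ccdc184 (0.755) and Podnl1 (0.746). Pairs of the 4 receptor genes had r from 0.73 to 0.83, while Csf2 with any of the other 5 genes had r from -0.10 to 0.07.

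Whether single macrophages carry both receptors was looked at with cells thinned to 2000 UMIs. In sorted M2 macrophages a Csf2ra UMI was seen in 38.6% of 202 KO cells with and 25.3% of 174 KO cells without a Csf1r UMI, and in 34.6% of 246 WT cells with and 28.4% of 370 WT cells without. In sorted M1 macrophages the shares were 23.2% with and 23.0% without in KO, and 20.5% with and 23.1% without in WT.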
